A study of Mus musculus with 2 samples.

Results

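The interleukin 6 (IL-6) family receptors, their kinases, STAT3 and SOCS3 were described in regenerating mouse liver as a set of 10 genes, Il6, Il6ra, Il6st, Osmr, Lifr, Jak1, Jak2, Stat3, Socs3 and Il1r1. They were chosen by name, with earlier results of these data known. A row of the deposited table was taken for a gene when its gene column held that symbol. All 10 were found, each in 1 row that named no other gene, among 33224 gene symbols. RNA-sequencing gave 1 library from the liver of wild type (WT) and 1 from that of PPARbeta-null (KO) C57BL/6 mice, both male and 4 months old by the sample labels (3 months in the series text), taken 48 hr after partial hepatectomy (PH) as the study's text states. Mice of both groups had undergone PH and had food and water ad libitum, and the labels name no cell type to which the null allele was limited. Whether a library came from 1 mouse or from a pool is not given in the sources used here. With 1 library per genotype no spread between mice was measured and no test between the genotypes was possible, so every ratio below compares these libraries.

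IL-6 and its relatives bind a specific receptor chain and then the shared signal chain gp130, which sets off Janus kinases and the transcription factor STAT3. STAT3 switches on the gene of its own inhibitor, SOCS3, which shuts the receptor down again. In the liver this pathway is known for priming hepatocytes to divide after PH and for the acute phase response, in which hepatocytes release large amounts of plasma proteins, together with signals from the IL-1 receptor.

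Levels are given as FPKM, a fragment number per kilobase of exon set relative to the depth of its library, which can be compared between genes because it is set per length. The depth was read from genes with 1 exon, in which low values clustered at the worth of whole fragments. For a 1 kb transcript, 1 FPKM thus stood for some 54.0 fragments in WT and for 54.9 in KO. The 95% intervals below follow from such estimated fragment numbers on the longest annotated transcript. They cover counting error only, so they are narrow for abundant genes and say nothing of the difference between mice. Ppard, the targeted gene, stood at 2.67 FPKM in WT against 2.42 in KO, for a KO/WT ratio of 0.906 (95% counting interval 0.794 to 1.04), so its locus as a whole gave no check of the genotype labels. Hepatocyte markers were abundant in both libraries, with Serpina1a at 3337 and 4039, Apoa1 at 3061 and 3503 and Ttr at 2503 and 2406 FPKM in WT and KO. Among the 11723 genes whose FPKM averaged 1 or more over both libraries, called expressed genes here, the median log2 KO/WT was -0.24 on the scale of FPKM + 0.1, a ratio of 0.849. A gene with equal FPKM in both libraries thus stood above the middle of the transcriptome.

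Most receptors, kinases and Stat3 were within 1.5-fold between the livers, while a feedback inhibitor and the IL-1 receptor were past it. Socs3 (KO/WT ratio 1.93) and Il1r1 (ratio 2.00) were the members past 1.5-fold, and both were higher in KO. None of the members was more than 1.5-fold lower in KO. The other 7 members that averaged 0.1 FPKM or more had ratios between 0.778 and 1.23, and Il6 itself was at the limit of detection. These counts were taken on the log2 scale of FPKM + 0.1, on which the fold of low genes is understated. Over all 15727 genes that passed the same limit, 4.93% were more than 1.5-fold higher and 22.9% more than 1.5-fold lower in KO. Once the ratios were centred on the median expressed gene, these shares were 8.34% and 15.3%, so that higher genes made up 35.3% of the calls in place of 17.7%. With that centring, too, 2 members were past 1.5-fold higher and 0 past 1.5-fold lower. Centring raised all KO values by a common factor, so it could not remove a higher call or add a lower one. Past 2-fold there was 1 member, Il1r1, where 2.08% of all genes were higher and 9.94% lower in KO by that fold. The 95% counting intervals of Il1r1 (1.95 to 2.06) and Socs3 (1.81 to 2.06) both held 2. Both ratios were above 2 with equal upper quartiles (2.31 and 2.22) and after centring (2.36 and 2.275), so this fold does not set them apart.

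**Figure D1:**
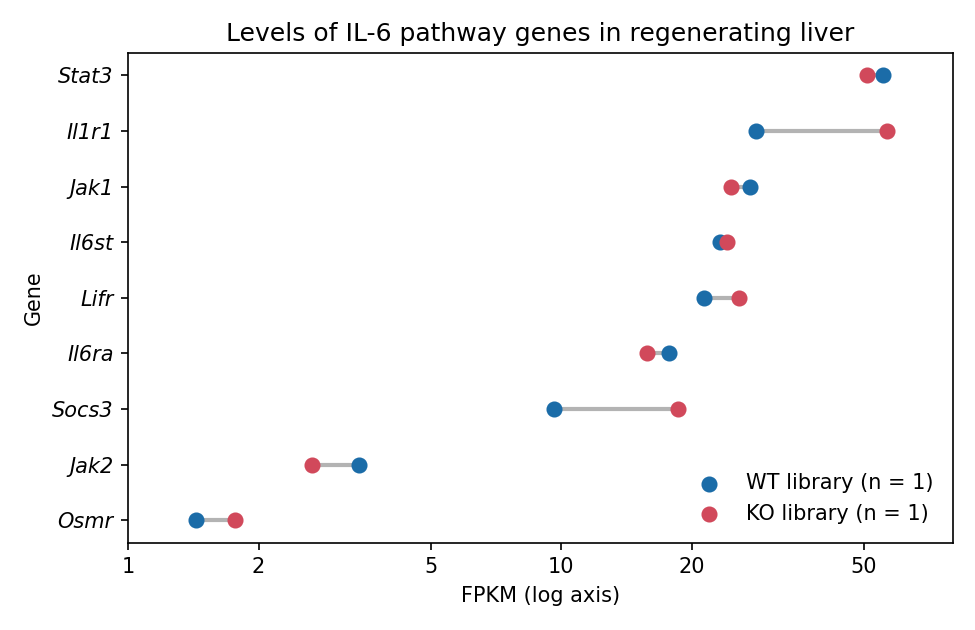
FPKM (x axis, log scale) of 9 genes in the WT library (blue) and the KO library (red), 1 library per genotype and no error bars, with a grey line joining the libraries. Il6 is left out because it was listed at 0 in KO. The points of Socs3 (9.62 and 18.6) and Il1r1 (28.2 and 56.5) lie farthest apart.

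Il6 encodes the ligand that gives the family its name and is made mainly by macrophages and other non-parenchymal cells. Its locus (chromosome 5, 30339701 to 30346508, plus strand, NCBIM37) had an FPKM of 0.0371 in the WT library and was listed at 0 in the KO library. On its transcript of 1087 nt the WT value was worth about 2.18 fragments. The floor of 3 fragments would be 0.0511 FPKM in WT and 0.0503 in KO, so a difference in Il6 mRNA was not detectable at this depth and no fold is given.

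The receptor chains Il6ra, Osmr and Lifr were detected in both libraries. Il6ra, the chain that binds IL-6 itself (chromosome 3, 89672214 to 89717185, minus strand), stood at 17.7 FPKM in WT against 15.8 in KO. Its KO/WT ratio was 0.894 (95% counting interval 0.850 to 0.940), which turned to 1.03 with the libraries scaled to equal upper quartiles and to 1.05 after centring on expressed genes. Osmr, the chain for oncostatin M (chromosome 15, 6763577 to 6824313, minus strand), had the lowest level of the detected members, at 1.44 FPKM in WT and 1.76 in KO. The ratio of Osmr was 1.23 (95% counting interval 1.07 to 1.41). Lifr, the chain for leukemia inhibitory factor (chromosome 15, 7079543 to 7147489, plus strand), stood at 21.3 FPKM in WT against 25.7 in KO, a ratio of 1.21 (95% counting interval 1.18 to 1.24). Osmr and Lifr both lie on chromosome 15. The FPKM of Lifr was 14.8 times that of Osmr in WT and 14.6 times in KO.

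Il6st encodes gp130, the chain shared by the whole family (deposited locus chromosome 13, 113254192 to 113299358, plus strand, 13314 bases wider than the gene). It stood at 23.2 FPKM in WT against 24.1 in KO, and its ratio of 1.04 (95% counting interval 1.01 to 1.08) was the closest to 1 of the members as deposited, but 1.20 with equal upper quartiles and 1.23 after centring, where Il6ra was closest. Per length there was more Il6st than Il6ra mRNA in both libraries, 1.31 times as much in WT and 1.53 times in KO. Relative to expressed genes, the ratio of Il6st lay above that of 80.4% of them, that of Osmr above 91.2% and that of Lifr above 91.0%, whereas Il6ra was near the middle (59.3%).

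The kinases that gp130 carries differed in level. Jak1 (deposited locus chromosome 4, 100741588 to 100937887, minus strand) stood at 27.3 FPKM in WT against 24.6 in KO. Its ratio of 0.903 (95% counting interval 0.873 to 0.933) turned to 1.04 with equal upper quartiles and to 1.06 after centring. The locus was 83384 bases wider than the Jak1 gene and overlapped other genes, among them Raver2. Jak2 (chromosome 19, 29326318 to 29387570, plus strand) stood at 3.42 FPKM in WT against 2.66 in KO. Its ratio of 0.778 (95% counting interval 0.706 to 0.858) was the lowest of the detected members and stayed below 1 under each of the 3 other scalings tried. The FPKM of Jak1 was 7.98 times that of Jak2 in WT and 9.26 times in KO.

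Stat3, the transcription factor on which the pathway ends, was the most abundant member in WT, at 55.3 FPKM, and reached 50.9 FPKM in KO. Its deposited locus (chromosome 11, 100720665 to 100801063, minus strand) was 25956 bases wider than the Stat3 gene and overlapped Stat5a. The KO/WT ratio of Stat3 was 0.921 (95% counting interval 0.902 to 0.940), and scaling to equal upper quartiles or centring turned it to 1.06 or 1.085. It lay above the ratio of 63.9% of expressed genes. In GENCODE vM1 the Stat3 gene meets Stat5a on the other strand over 72 bases and Jak1 meets Raver2 over 4 bases, so reads from these bases cannot be assigned to a gene without strand. The Jak1 gene also overlaps a U6 gene over 104 bases on the other strand and Gm12785 over 172 bases on its own strand, where strand would not separate the reads. The mRNA level says nothing of the phosphorylation by which STAT3 is activated, which was not measured in these files.

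Socs3 encodes the inhibitor that STAT3 induces and that binds gp130 and the Janus kinases. Its locus (chromosome 11, 117827393 to 117831674, minus strand) stood at 9.62 FPKM in WT against 18.6 in KO, about 1326 and 2603 fragments. The KO/WT ratio was 1.93 (95% counting interval 1.81 to 2.06), above that of 98.1% of expressed genes, and it was 1.98 with the libraries scaled to equal sums, 2.22 with equal upper quartiles and 2.275 after centring. While Stat3 had 5.74 times the FPKM of Socs3 in WT, it had 2.74 times in KO, a ratio within each library that no scaling changes.

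Il1r1, the signalling receptor of IL-1 (chromosome 1, 40278913 to 40373043, plus strand), stood at 28.2 FPKM in WT against 56.5 in KO, about 7345 and 14969 fragments. Its ratio of 2.00 (95% counting interval 1.95 to 2.06) was the highest of the members and lay above that of 98.3% of expressed genes. It was 2.05 with equal sums, 2.31 with equal upper quartiles and 2.36 after centring. Il1r1 was the most abundant member in KO, ahead of Stat3, whereas in WT it was close to Jak1. Il1rap, its accessory chain, stood at 35.7 FPKM in WT against 40.2 in KO over 2 rows of the table. Il1r1 thus had 0.789 times the FPKM of Il1rap in WT and 1.40 times in KO.

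The promoters of the 2 members past 1.5-fold are shown because the STAT binding motif is known from targets of this pathway. The windows hold 250 bases before and 50 bases from the transcription start of RefSeq (GRCm38.p6), and each was found once, base for base, in NCBIM37, whose coordinates are given. Capitals mark TTCNNNGAA, which reads the same on both strands and was the only motif searched. The Socs3 window lies on the minus strand at chr11:117830631-117830930 and those of Il1r1, from 2 annotated starts, on the plus strand at chr1:40281675-40281974 and chr1:40323181-40323480.
Socs3: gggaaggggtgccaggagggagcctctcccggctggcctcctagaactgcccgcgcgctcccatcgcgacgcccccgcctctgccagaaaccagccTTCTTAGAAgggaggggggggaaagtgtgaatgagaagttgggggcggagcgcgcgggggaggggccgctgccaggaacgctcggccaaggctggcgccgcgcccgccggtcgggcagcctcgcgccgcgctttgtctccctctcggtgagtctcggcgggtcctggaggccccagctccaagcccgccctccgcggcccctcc
Il1r1 upstream start: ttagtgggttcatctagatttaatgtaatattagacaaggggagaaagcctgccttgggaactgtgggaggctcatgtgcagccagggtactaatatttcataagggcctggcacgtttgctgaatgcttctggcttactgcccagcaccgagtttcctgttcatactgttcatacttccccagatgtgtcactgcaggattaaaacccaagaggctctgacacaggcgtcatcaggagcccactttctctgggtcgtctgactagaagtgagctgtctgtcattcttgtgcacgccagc
Il1r1 downstream start: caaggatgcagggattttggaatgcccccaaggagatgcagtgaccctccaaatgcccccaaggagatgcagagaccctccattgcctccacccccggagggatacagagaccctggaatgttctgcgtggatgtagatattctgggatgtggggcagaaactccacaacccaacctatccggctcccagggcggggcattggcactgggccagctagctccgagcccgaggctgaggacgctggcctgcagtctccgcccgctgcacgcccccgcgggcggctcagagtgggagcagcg
The Socs3 window held 1 match, TTCTTAGAA, whose first base was at -154 from the start, and the Il1r1 windows held 0. The motif was present in 8.30% of all 32851 promoter windows of this length. Among the 12 windows of the 10 members that of Socs3 was the only one with a match. A match describes these letters and is not a measured binding site.

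**Figure D2:**
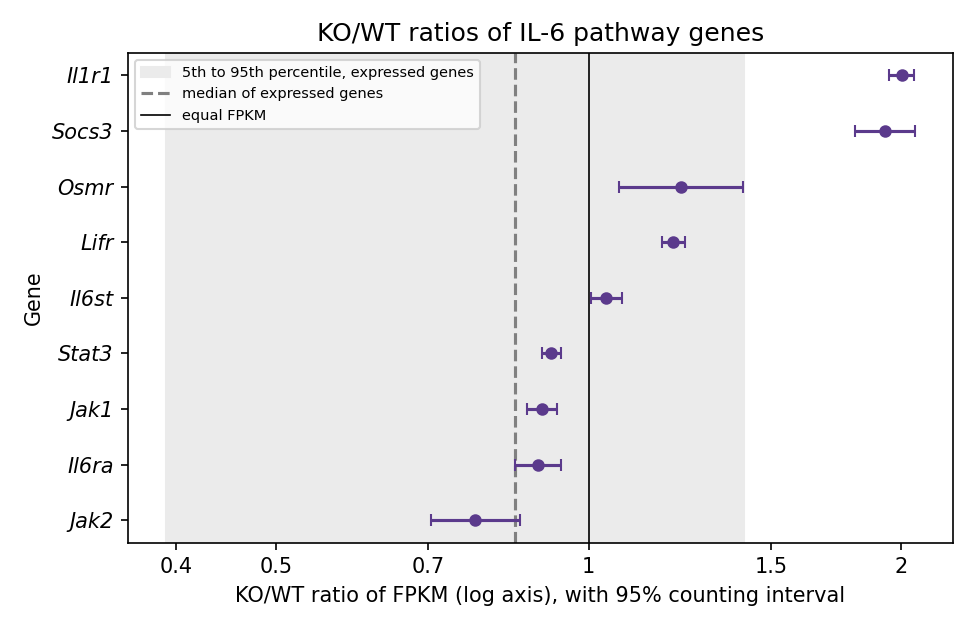
KO/WT ratio of FPKM (x axis, log scale) of 9 genes, with 95% counting intervals as bars, the 5th to 95th percentile of expressed genes shaded (0.391 to 1.41), their median dashed (0.849) and equal FPKM as a solid line. Il1r1 and Socs3 are to the right of the shaded range, and the other 7 genes are within it.

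The order of the levels was Stat3, Il1r1, Jak1, Il6st, Lifr, Il6ra, Socs3, Jak2 and Osmr in WT. In KO it was Il1r1, Stat3, Lifr, Jak1, Il6st, Socs3, Il6ra, Jak2 and Osmr. Whether neighbours in these orders differ beyond the spread between mice cannot be said from 1 library each. Jak2 and Osmr were the lowest of the detected members in both.

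Markers of non-parenchymal cells, which also carry receptors of this family and make its ligands, were lower in KO in most lists. The marker lists, too, were written with earlier results of these data known. In bulk liver fewer cells of a type and less RNA per cell cannot be told apart. Of 10 markers of Kupffer cells and macrophages 6 were more than 1.5-fold lower in KO and 0 higher, and their summed FPKM was 73.5 in WT and 49.2 in KO, with Clec4f at 17.3 and 10.6, C1qb at 14.8 and 10.0 and C1qa at 13.9 and 10.3. Of 8 endothelial markers 5 were lower by that fold and 0 higher, with summed FPKM of 62.5 and 44.9 (Clec4g, joint with Gm9814, 21.8 and 18.9, Fcgr2b 12.2 and 8.47, Stab2 9.66 and 6.23). Of 8 stellate cell markers 3 were lower and 0 higher, with sums of 111 and 69.0 (Dcn 62.6 and 46.9, Col3a1 14.5 and 3.18, Reln 9.56 and 6.40). Of 9 neutrophil markers 3 (Ly6g, Mpo and Camp) were listed at 0 in both libraries, and 4 of the 5 that averaged 0.1 FPKM or more were lower, with sums of 14.0 and 7.43 (S100a8 6.68 and 3.33, S100a9 6.11 and 3.48, Csf3r 0.764 and 0.356). Lymphocyte markers summed to 0.958 and 0.462 FPKM, with 1 of the 2 that passed the filter lower (Cd4 0.340 and 0.127, Cd79a 0.138 and 0.0765, Nkg7 0.137 and 0.0437). The 95% counting interval of the ratio of Cd79a included 1 (0.163 to 1.58). Nkg7 did not pass the filter and was under the floor in KO, at about 2.11 fragments. Of 6 cholangiocyte markers 5 passed the filter and 2 were lower, with sums of 29.8 and 25.7 (Spp1 24.5 and 22.7, Sox9 1.95 and 1.78, Krt19 1.72 and 0.559). Of 10 hepatocyte markers 3 were higher and 3 lower, with sums of 16375 and 16172. In the deposited scaling, Socs3 and Il1r1 were higher and the sums of these non-parenchymal markers lower in KO. The part of cell makeup in the ratios was not tested. After centring, the KO/WT ratio of the summed FPKM was 0.7885 for Kupffer cells, 0.8466 for endothelial and 0.7324 for stellate cells and 0.6271 for neutrophils, and it turned above 1 for cholangiocytes (1.017) and hepatocytes (1.164). The counts of lower markers then were 5 for Kupffer cells, 3 for endothelial cells, 2 for stellate cells and 3 for neutrophils, beside the 15.3% of all genes lower after centring and the 22.9% without it.

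Other genes of the pathway were read from lists of names that were written with earlier results of these data known. Each list is set beside all genes above the limit of 0.1 FPKM, whose median log2 KO/WT was -0.25. Of all these genes, 4.93% were more than 1.5-fold higher and 22.9% more than 1.5-fold lower in KO. Of 9 other ligands of the IL-6 family, 4 passed that limit, 2 were more than 1.5-fold lower in KO and 0 higher, with a median of -0.62. Clcf1, a cytokine that acts through gp130 and Lifr, stood at 1.49 FPKM in WT against 0.358 in KO, a ratio of 0.241 (95% counting interval 0.183 to 0.315). The other was Ebi3, a subunit of IL-27, at 0.183 and 0.0661 FPKM, about 11.6 and 4.24 fragments with a 95% counting interval of the ratio that included 1 (0.0771 to 1.08), named after its values were seen. Ctf1, cardiotrophin 1, was at 2.72 and 1.93 FPKM, and Cntf, in a row joint with Zfp91, at 19.2 and 17.4. The other 5, Osm, Lif, Il11, Ctf2 and Il27, averaged less than 0.1 FPKM, as Il6 did.

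Of 16 further receptor chains, kinases, STATs, adaptors and Il6ra-shedding proteases, 15 passed the filter, with a median log2 KO/WT of -0.25. None was more than 1.5-fold higher and 2 were lower in KO, of which Adam10 was within 1.5-fold with equal upper quartiles and after centring. The median of the list was -0.0798 and -0.04996 under these scalings. These were Gab1, an adaptor that carries signals from gp130 (2.06 and 1.04 FPKM, ratio 0.506), and Adam10, a protease that can shed Il6ra (12.1 and 7.80 FPKM, ratio 0.646), both named after their values were seen. The most abundant of the list were Il11ra1, joint with Galt, at 49.0 and 43.6 FPKM, the adaptor Grb2 at 19.8 and 15.1 and Stat6, which serves IL-4, at 16.0 and 17.4.

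Of 13 other feedback regulators and phosphatases, all passed the filter and their median was -0.14, which turned to 0.0622 with equal upper quartiles and to 0.0963 after centring. Past 1.5-fold there were 1 higher and 1 lower gene, both of the family of Socs3 and both named after their values were seen. The lower one, Socs2, was within 1.5-fold with equal upper quartiles and after centring, which left 1 higher and 0 lower. Cish stood at 2.85 FPKM in WT against 5.61 in KO, a ratio of 1.97 (95% counting interval 1.80 to 2.16), and Socs2 was at 2.26 and 1.41 FPKM, a ratio of 0.625 (95% counting interval 0.542 to 0.717). Both are known as targets of STAT5. Socs1, the nearest relative of Socs3 in function, was low, at 0.327 and 0.220 FPKM, with a counting interval of 0.324 to 1.35 that included 1. It, too, was named after its values were seen. The phosphatases Ptpn11 (17.9 and 16.6 FPKM), Ptpn1 (8.59 and 8.01) and Ptpn2 (7.78 and 7.40) were the most abundant of the list, with ratios between 0.929 and 0.951.

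The IL-1 and TNF arm held genes that went both ways. Of 19 genes 18 passed the filter, 2 were more than 1.5-fold higher and 3 lower in KO, and the median was 0.0509. By that fold 4.93% of all genes were higher and 22.9% lower. The higher ones were Il1rn, the secreted antagonist of the IL-1 receptor, at 1.46 and 4.67 FPKM in WT and KO (ratio 3.20, 95% counting interval 2.72 to 3.78), and Irak2, a kinase downstream of that receptor, with 6.14 and 12.5 (ratio 2.03, 95% counting interval 1.88 to 2.19). The lower ones were the agonist Il1a, at 2.30 and 0.749 FPKM (ratio 0.326, 95% counting interval 0.2498 to 0.420), and, named after their values were seen, the agonist Il1b, at 0.474 and 0.149, and the decoy receptor Il1r2, at 0.316 and 0.0963. Il1b rested on about 34.7 and 11.1 fragments in WT and KO (95% counting interval of the ratio 0.142 to 0.623). Il1r2 rested on about 22.8 and 7.06 (0.109 to 0.721). With a mean of at least 1 FPKM required, 1 gene of the arm, Il1a, was lower. Both IL-1 agonists were thus lower in KO, and the signalling receptor, a downstream kinase and the antagonist higher. The related kinases Irak1, Irak3 and Irak4 were within 1.5-fold. Tnfrsf1a, the main TNF receptor, was at 64.5 and 59.6 FPKM and the kinase Irak1, joint with Mir718, at 23.7 and 21.9.

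**Figure D3:**
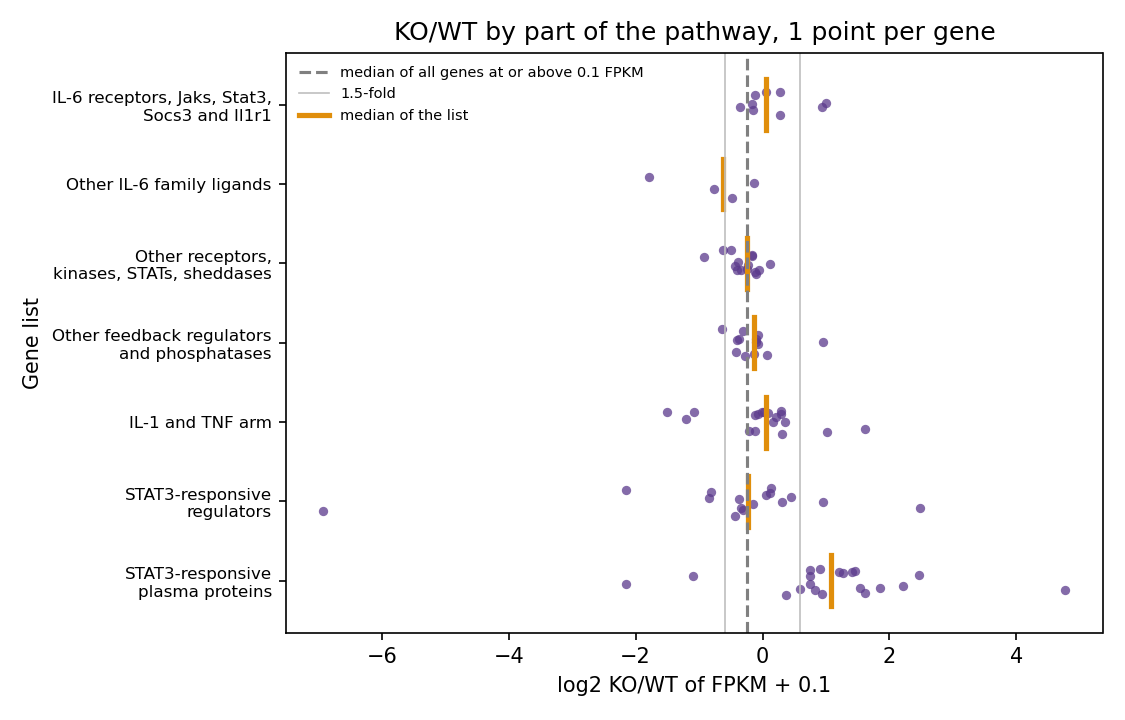
log2 KO/WT on the scale of FPKM + 0.1 (x axis) for genes that averaged 0.1 FPKM or more, 1 point per gene and 1 row per list, with the median of each list in orange, the median of all such genes dashed (-0.25) and 1.5-fold as thin lines. The plasma proteins have their median at 1.07, and the medians of the other lists lie between -0.62 and 0.0564.

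Genes known to respond to STAT3 were divided into regulators and plasma proteins. Whether STAT3 or other signals set their values was not tested. Of 16 regulators 2 were more than 1.5-fold higher and 4 lower in KO, and the median was -0.23 on the log2 scale. Over all genes, 4.93% were higher and 22.9% lower by that fold. The counts and the median depended on the scaling. Equal upper quartiles gave 3 higher and 4 lower regulators with a median of -0.0318, beside 7.78% and 16.2% of all genes. Centring gave 3 and 3 with a median of 0.00264, beside 8.34% and 15.3% of all genes. Bcl3 came past 1.5-fold higher under both, and Mcl1 was no longer past 1.5-fold lower after centring. Fos stood at 1.37 FPKM in WT against 8.10 in KO (ratio 5.90, 95% counting interval 4.98 to 7.05) and Junb was at 27.7 and 53.8 FPKM (ratio 1.94, 95% counting interval 1.86 to 2.04). Both are subunits of AP-1. Lower were Birc5, which encodes survivin, at 25.5 and 0.111 FPKM and Timp1, an inhibitor of matrix proteases, at 4.48 and 0.932. Mcl1 at 48.1 and 27.2 and Ier3 at 1.47 and 0.778 were also lower, both named after their values were seen. The paper reports delayed hepatocyte proliferation in KO after PH, and whether these lower values followed STAT3 or that delay was not tested. Cebpb was at 75.8 and 59.8 FPKM and Bcl3, whose test failed in the deposited table, at 36.2 and 49.2.

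Plasma proteins and other secreted or surface products of the acute phase were higher in KO as a group. Of 21 listed genes 20 were measured, since C3 was marked as having too many fragments. Of these, 17 were more than 1.5-fold higher and 2 lower, with a median log2 KO/WT of 1.07. Of all genes, 4.93% were higher and 22.9% lower by that fold, and their median was -0.25. After centring, 18 genes of the list and 8.34% of all genes were higher. The values of this group were already known when the list was written, so its direction is no independent evidence. Whether these values followed STAT3, signals from the IL-1 receptor or others was not tested. Lcn2 stood at 538 FPKM in WT against 1935 in KO (ratio 3.59), Lrg1 at 454 and 1389 (ratio 3.06), Lbp at 39.8 and 115 (ratio 2.89), Itih4 at 784 and 2162 (ratio 2.76), Serpina3n at 466 and 1120 (ratio 2.40) and Fgl1, whose test failed in the deposited table, at 754 and 1741 (ratio 2.31). The ratio was 2.65 for Hp, 4.63 for Saa1, 5.51 for Saa2 and 27.8 for Saa3, and reads of Saa1 and Saa2, which are near copies of each other, may have been split between them. Orm2 was within 1.5-fold, at 365 and 470 FPKM, and past it after centring. Lower were Hamp, which encodes the iron hormone hepcidin, at 634 and 143 FPKM (ratio 0.225), and A2m, at 0.302 and 0.0889. With a mean of at least 1 FPKM required, A2m was not counted. Orm2 and A2m were named after their values were seen.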

How the data were processed

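RNA from 1 WT and 1 KO liver library was sequenced on an Illumina HiSeq with 100 bp reads, which the methods call single end and the labels paired end. Per the labels and the methods, the authors aligned the reads with TopHat 2.0.0 to mm9 (NCBI37), assembled transcripts with Cufflinks 1.3.0 and used Cuffdiff. The FPKM values deposited by the authors are Cuffdiff's estimates, 1 per locus and library, and whether they were quartile normalized is not given in the sources used here. The other columns hold Cuffdiff's comparison of the libraries (a fold change, a statistic, p-values and a call) and were not used.

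Of 38016 loci, 21 marked HIDATA were left out as failed estimates, 2302 had no symbol, and each symbol of the 850 loci that named several was given its joint value. Where a symbol had several rows, these were summed. A gene was counted past a fold of 1.5 on the scale log2(FPKM + 0.1), among genes that averaged 0.1 FPKM or more over both libraries. Lengths, strands and gene overlaps came from GENCODE vM1 (NCBIM37, the build of the files), in which 32451 of 33224 symbols were found. The positions printed with the levels of the members are those of the deposited loci, which can be wider than the gene. Fragment numbers were estimated from the FPKM, the longest transcript and the worth of 1 fragment, 0.0185 FPKM per kb in WT and 0.0182 in KO, read from 392 and 377 low values among 3970 genes with 1 exon. Intervals of ratios are Clopper-Pearson intervals of these numbers, given for genes alone in 1 row, and no fold is given where both libraries had 3 fragments or fewer. The tools were scipy 1.17.1, pandas 2.3.3, numpy 2.4.6 and matplotlib 3.10.9 under Python 3.11.15. The steps were tested on simulated libraries with counting error only, drawn on the same longest transcripts. That test did not cover variation between mice or isoforms.

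The members and the 6 pathway and 7 marker lists were chosen with earlier results of these data known. Named were every member, Ppard, from each pathway list the 3 genes highest in mean FPKM and those averaging 1 FPKM or more with over a 2-fold ratio, and from each marker list the 3 highest. Alternatives covered scaling, pseudocount, filter, fold, rows per symbol, joint rows and transcript length. Genes with a pattern like that of a member were not sought, since 2 libraries give 1 ratio per gene.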

Additional observations from a re-analysis of the deposited data

How the results depend on the processing

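With 1 library per genotype, no replicate could be left out and the values describe these libraries alone. No paired analysis was possible because each genotype had a single library. Of 63 values of member ratios under alternatives, 19 were outside the counting interval of the value reported, all of them under another scaling. All 9 ratios left their interval with equal upper quartiles, all 9 after centring, and 1, that of Stat3, with equal sums. The alternatives on rows per symbol and joint rows could not change a member ratio, since each member was alone in 1 row. Of the called ratios, 0 changed direction. The other scalings raised all KO values by a common factor, so they could not reverse or remove a higher call, or add a lower one. The counts of members past 1.5-fold, 2 higher and 0 lower, did not change under the alternatives other than a fold of 2, which left 1 higher, Il1r1. In the same alternatives the uncalled ratios of Il6ra, Jak1 and Stat3 turned above 1 with equal upper quartiles and after centring. With the median length of the annotated transcripts in place of the longest, the interval of Socs3 was 1.656 to 2.252 and that of Jak1 0.8212 to 0.9912, and the intervals of the 9 members with a ratio stayed on their side of 1. Il6, with no ratio, was not included.

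Of 240 values of counts, medians and shares under alternatives, 205 stayed within the limits set for them, which are not given here. This number is no measure of stability, since some values could not leave their limits. The fold of 2, for one, could not change a median. A value within its limits could also change sign. The median of the STAT3-responsive regulators went from -0.2325 to 0.002639 after centring. That of the members went from 0.05644 to -0.03116 without a filter. With equal upper quartiles and after centring, respectively, 1 and 1 of the receptor, kinase and STAT list was lower, its median was -0.0798 and -0.04996, 0 and 0 feedback regulators were lower, their median was 0.0622 and 0.0963, 7.78% and 8.34% of all genes were higher, and the median of all genes was -0.0605 and -0.02745. With a pseudocount of 1 FPKM, 1 ligand, 0 receptors and kinases, 0 feedback regulators, 1 gene of the IL-1 and TNF arm and 1 plasma protein were lower, and 2.61% of all genes were higher and 12.0% lower. Without a filter these shares were 2.95% and 12.2%, and the median of all genes was 0. With a mean FPKM of at least 1, 0 ligands, 1 gene of the IL-1 and TNF arm and 1 plasma protein were lower, since fewer genes were counted. With a fold of 2, 1 ligand, 0 receptors and kinases and 0 feedback regulators were lower and 0 feedback regulators higher, 1 STAT3-responsive regulator was higher and 2 lower, 10 plasma proteins were higher, and 2.08% of all genes were higher and 9.94% lower.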
